A study of Mus musculus with 18 samples.

Results

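RNA of NIH3T3 cells, an established line of mouse embryo fibroblasts, was compared between 24 h and 12 h after the end of a glucocorticoid pulse. All cells of the series had received 100 nM dexamethasone, a synthetic glucocorticoid that resets the clocks of cultured cells, for 2 h, and a change to normal medium then set 0 h. Harvests followed every 4 h until 32 h, and the labels name no genotype, allele or further agent for any group. The libraries labelled 24 h (replicates 1 and 2) and 12 h (replicates 1 and 2) were taken, which are 4 of the 18 libraries, and the other 14 entered the filter on low values, the estimate of spread, the means given for other times and the comparisons at the end. Of 21937 genes in the table, the 12393 with a mean of at least 10 reads over all libraries were tested. No untreated cells were analysed here, so each value at 24 h is read against 12 h and not against a resting culture.

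Values are normalized reads, that is, the reads counted in a gene divided by 1 scaling factor per library. The 12 h libraries held 34350615 and 31867545 reads in genes and the 24 h libraries 35270928 and 27318483. Changes are differences of 24 h minus 12 h in log2(value + 1), given ± SE, and for genes with few reads this scale makes them look smaller than they are. Every adjusted p is from limma with Benjamini-Hochberg adjustment over the tested genes, with a threshold of 0.05. In 46% of all tested genes the libraries of 24 h did not overlap those of 12 h, so a lack of overlap alone sets no gene apart. Whether the replicates came from separate cultures is not stated in the labels, so the p-values measure only the spread between these libraries, which may be technical. In RNA from whole cultures, fewer cells of a kind and less RNA per cell cannot be told apart.

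The circadian clock of mammalian cells is a loop of transcription and repression that takes about a day. CLOCK and BMAL1 bind E-boxes and switch on the Period and Cryptochrome genes, whose proteins return to the nucleus and repress them. The same E-boxes drive the nuclear receptors REV-ERB alpha and beta, which repress the BMAL1 gene through REV-ERB/ROR elements, and the PAR bZIP factors, which activate further genes through D-boxes. In fibroblasts each cell keeps its own clock, and a pulse of dexamethasone brings the cells of a dish into a common phase, after which target genes of the 2 loops peak at different hours.

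Promoter sequences are shown for clock genes that changed between 12 h and 24 h, so that the elements named above can be seen beside the values that follow. They are RefSeq sequences of build GRCm38.p6, on the strand of the gene and from 5' to 3', and the capitals mark the element. The E-box searched was CACGTG, which reads the same on both strands, the D-box was TTATGTAA or TTACGTAA, and the REV-ERB/ROR element was a GGTCA core after an A/T-rich lead, the last 2 searched on both strands. The windows ran from 250 bases before to 50 bases after each start site. Per1 has 1 E-box (chr11:69098753-69098818, + strand, 166 bases before the start site), Tef has 1 in each of 2 windows (shown is chr15:81802516-81802581, + strand, 127 bases before) and Cry1 has 1 (chr10:85185079-85185144, - strand, 60 bases before). Gm129, which RefSeq lists as Ciart, has 3 (chr3:95882237-95882374, - strand), and Per3 has 2 D-boxes (chr4:151044786-151044900, - strand, the first 205 bases before). Arntl, the gene of BMAL1, has 1 REV-ERB/ROR element that begins 28 bases into the transcript (chr7:113207528-113207557, + strand).
Per1: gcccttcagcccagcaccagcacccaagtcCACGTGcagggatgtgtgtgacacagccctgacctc
Tef: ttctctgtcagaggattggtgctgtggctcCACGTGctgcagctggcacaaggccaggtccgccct
Cry1: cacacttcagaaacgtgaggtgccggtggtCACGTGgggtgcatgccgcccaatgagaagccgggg
Gm129: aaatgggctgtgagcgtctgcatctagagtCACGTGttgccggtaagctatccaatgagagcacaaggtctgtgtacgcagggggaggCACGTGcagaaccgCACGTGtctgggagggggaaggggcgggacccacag
Per3: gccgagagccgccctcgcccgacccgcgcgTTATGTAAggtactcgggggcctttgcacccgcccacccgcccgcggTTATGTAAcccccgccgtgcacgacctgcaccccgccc
Arntl: ggaaggcagaAAGTAGGTCAgggacggagg
The E-box letters were in the windows of 4 of the 10 matched members of the list of E-box and D-box clock genes, to which Cry1 and Arntl do not belong (Per2, Bhlhe40 and Wee1 were among those with no entry), and in those of 8.09% of all 27025 genes with a window. The D-box was in 1 of the 10 and in 1.23% of all genes. The REV-ERB/ROR element was in 1 of 5 genes of the list driven through it and in 0.714% of all genes. Each sequence shows one window of its gene. A match describes these letters in this window only.

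Of the 14 tested E-box and D-box clock genes, 10 rose at 24 h and none fell, where 3.32% of all tested genes rose. Their median log2 change was 1.12, beside -0.0071 for all tested genes. The Period genes, whose proteins form the repressive arm of the loop, were among the largest changes. Per2 stood at 165 and 181 normalized reads at 12 h and at 1472 and 1662 at 24 h, a log2 change of 3.17 ± 0.20 (adjusted p = 6.91e-07). Per3 stood at 152 and 140.4 at 12 h and 876 and 1166 at 24 h (2.78 ± 0.16, adjusted p = 2.33e-07). In both genes each library of 24 h exceeded each library of 12 h several times over. Per1, which glucocorticoids also induce directly, was the most abundant of the family in reads, with 2343 and 2503 at 12 h and 5036 and 4621 at 24 h (0.99 ± 0.08, adjusted p = 1.88e-05), and it changed least of the 3. The replicates of each time lay close together for all 3 genes, apart from Per3 at 24 h, where replicate 2 was the higher.

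The Cryptochromes, which are the partners of the PER proteins, both rose. Cry2 went from 374 and 357 to 956 and 822 normalized reads (1.28 ± 0.12, adjusted p = 1.01e-04). Cry1, which is driven through both E-boxes and REV-ERB/ROR elements, went from 445 and 501 to 798 and 835 (0.79 ± 0.17, adjusted p = 0.0148). No library of 12 h reached a library of 24 h in either gene, which was so for 22.6% of all tested genes. The call for Cry1 was lost when single libraries were left out, with an adjusted p of 0.123 without replicate 1 of 12 h, 0.0527 without replicate 1 of 24 h and 0.0967 without replicate 2 of 24 h. The mean of Cry1 was lowest at 16 h, with 228, and still only 378 at 20 h, whereas Cry2 had already reached 621 by then.

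The REV-ERB receptors, which repress the BMAL1 gene, rose as well. Nr1d2 (REV-ERB beta) stood at 257 and 239 normalized reads at 12 h and at 1189 and 1256 at 24 h (2.30 ± 0.11, adjusted p = 5.00e-08), the smallest p of the clock genes. Nr1d1 (REV-ERB alpha) stood at 610.1 and 461 at 12 h and 1318 and 1190.0 at 24 h (1.24 ± 0.16, adjusted p = 6.08e-04). The 12 h libraries were the lower ones in both receptors, with no overlap, which was so for 22.6% of all tested genes. For Nr1d1 the 24 h mean of 1254 was already below the 1789.7 of 20 h, while for Nr1d2 the means at 20 h and 24 h were 1233 and 1222.

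The PAR bZIP factors, transcription factors that act through D-boxes, separated by level. Tef, the most abundant of them in reads, rose from 1023 and 960.3 to 4523 and 4415 normalized reads (2.17 ± 0.11, adjusted p = 1.05e-07). Dbp, a direct CLOCK and BMAL1 target, had only 5.38 and 4.87 at 12 h and 55.0 and 97.9 at 24 h, the largest log2 change of all tested genes (3.60 ± 0.46, adjusted p = 6.08e-04). Its 24 h replicates differed more from each other than those of Tef, and its level stayed low throughout. Hlf, the third of the family, had 636 and 1048 at 12 h and 1368 and 1657 at 24 h (0.88 ± 0.32). Its libraries did not overlap either, which was so for 46% of all tested genes. The 12 h replicates of Hlf lay far apart and its adjusted p was 0.121, or 7.62e-07 with the replicate number as a block.

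Further E-box targets followed. Wee1, a kinase that holds back entry into mitosis, went from 1133 and 1167 to 1783 and 1762 normalized reads (0.62 ± 0.07, adjusted p = 4.10e-04), with replicates that nearly coincided. Bhlhe40 (DEC1), which competes for E-boxes as a repressor, went from 701 and 544 to 863 and 869.7 (0.49 ± 0.10, adjusted p = 0.0146). Gm129 (CHRONO), a repressor of CLOCK and BMAL1 with few reads here, went from 32.2 and 21.4 to 63.6 and 95.6 (1.53 ± 0.28, adjusted p = 0.00679). The call for Bhlhe40 was lost without replicate 2 of 12 h (adjusted p = 0.104), replicate 1 of 24 h (0.0570) or replicate 2 of 24 h (0.0838), and that for Gm129 without replicate 2 of 12 h (0.0601) or replicate 2 of 24 h (0.0805). Among the 4 members that did not pass were Hlf, Bhlhe41 (DEC2; 0.69 ± 0.34, adjusted p = 0.256) and the deubiquitinase gene Usp2 (0.38 ± 0.14, adjusted p = 0.123, and 0.0266 with the replicate block).

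The BMAL1 side of the loop moved the other way. Arntl stood at 982 and 1099.7 normalized reads at 12 h and at 620.1 and 564 at 24 h, so that both libraries of 24 h were below both of 12 h (log2 -0.81 ± 0.09, adjusted p = 2.48e-04). The mean of Arntl had its lowest value of the course at 24 h and its highest at 32 h, with 1180.3, whereas Tef had its lowest mean at 12 h and its highest, 4469, at 24 h. Clock, the partner gene, had 2507 and 2601 at 12 h and 2265 and 2239 at 24 h (-0.18 ± 0.06). Its change was small and passed only with the replicate block, with an adjusted p of 0.0971 without it and 0.0274 with it. Of the 5 tested genes driven through REV-ERB/ROR elements, Arntl and E2f8 fell, where 3.11% of all tested genes fell, Cry1 rose, and Clock and Nfil3 (0.08 ± 0.11, adjusted p = 0.730) did not pass. E2f8, a repressor of cell cycle genes, went from 1398 and 1351 to 1146 and 1142 (-0.26 ± 0.06, adjusted p = 0.0234), and its call was lost without any 1 of the 4 libraries (adjusted p = 0.159 and 0.0642 without replicates 1 and 2 of 12 h, 0.0748 and 0.111 without replicates 1 and 2 of 24 h). Among 17 tested other clock components, mostly kinases, ubiquitin ligases and cofactors that act on the clock proteins, Cry2 rose and the other 16 did not pass.

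**Figure D1:**
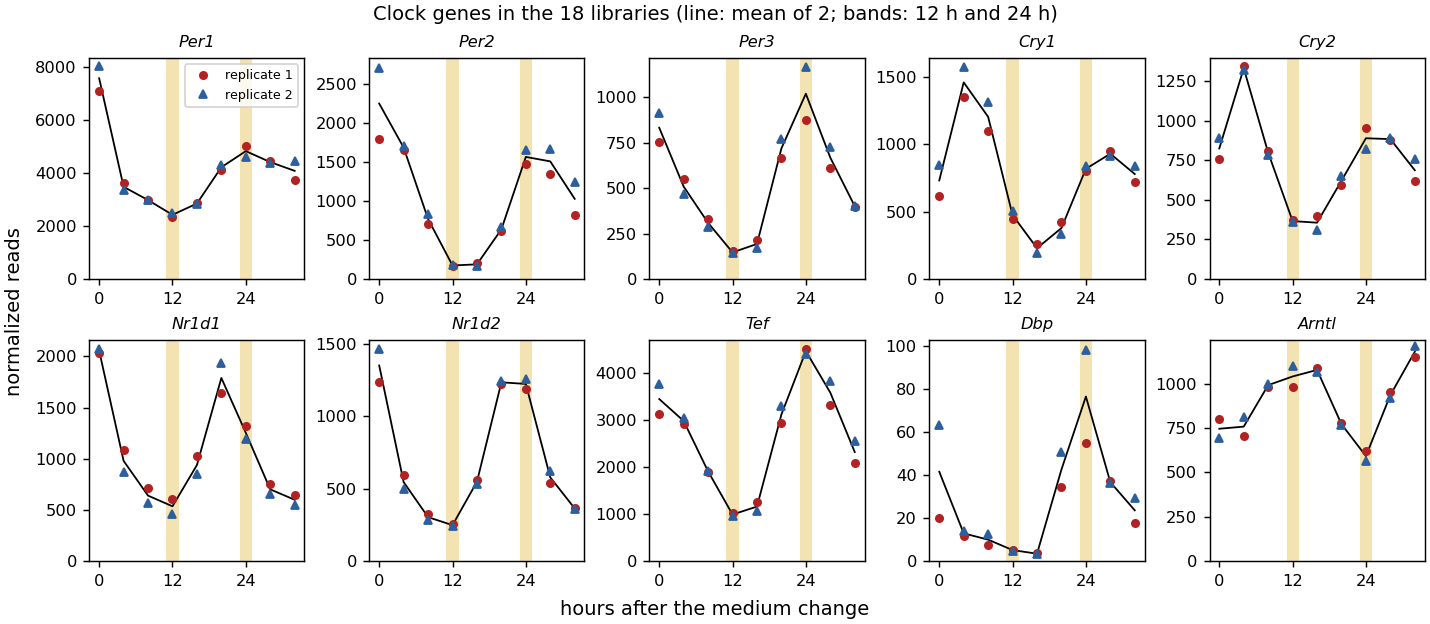
Normalized reads of 10 clock genes in all 18 libraries against hours after the medium change, with 1 symbol per replicate, the line at the mean of the 2 libraries, and bands at 12 h and 24 h. Per2, Per3, Nr1d2 and Tef have their lowest mean at 12 h and are high again at 24 h, and Arntl runs the other way, from a mean of 1041 to one of 592.

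Over all tested genes, 797 passed the threshold (6.43%), 412 higher and 385 lower at 24 h, so 51.7% of the calls were rises. Few of them were as large as the clock changes: 102 rises and 83 falls reached 1.5-fold, and 32 rises and 15 falls reached 2-fold. The unadjusted p was under 0.05 for 2728 genes. edgeR on the recovered reads called 799 genes, of which 769 were among the 797, and DESeq2 called 1002, of which 759 were. The split depends on the scaling: with every library set to the same total, 542 genes were higher and 283 lower, so that 65.7% of the calls were rises. The replicate numbers run through the whole series (same-numbered libraries deviated together), and with the number as a block 2743 genes passed (22.1%), 1360 higher and 1383 lower, with all 797 among them. Each library also counted: 214 genes passed without replicate 1 of 12 h, 398 without replicate 2 of 12 h, 467 without replicate 1 of 24 h and 242 without replicate 2 of 24 h.

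**Figure D2:**
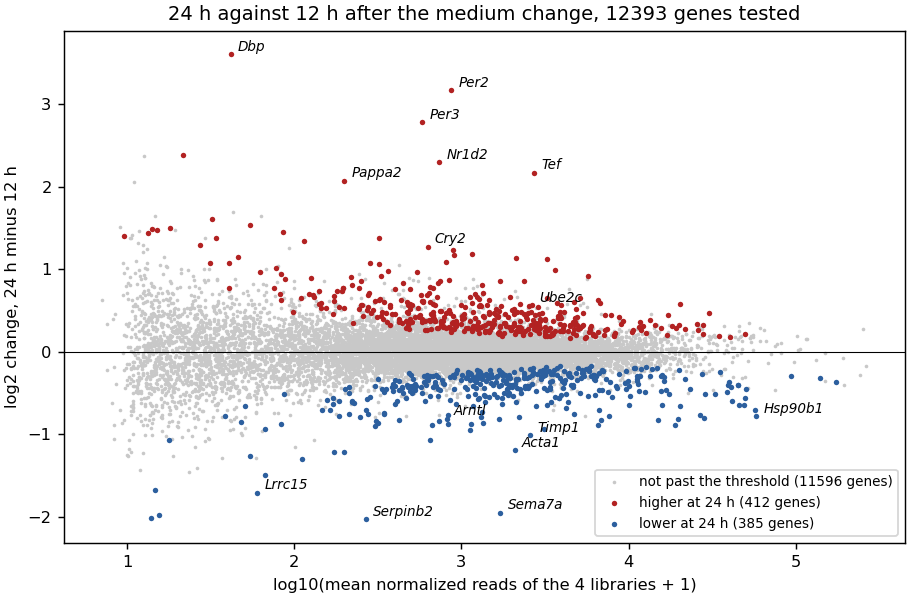
Log2 change from 12 h to 24 h of the 12393 tested genes against the log10 of their mean normalized reads in the 4 libraries plus 1, with 1 point per gene. The 412 rises and 385 falls are coloured, and the clock genes Dbp, Per2 and Per3 have the 3 largest rises, from 3.60 to 2.78.

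Genes of mitosis were higher at 24 h. In dividing cells these genes are transcribed late, in G2 and M phase, through CDE/CHR elements that are repressed earlier in the cycle, while the genes of DNA replication are driven by E2F factors in late G1. Of 33 tested mitosis genes, 22 rose and none fell, where 3.32% of all tested genes rose and 3.11% fell. In all 33 both libraries of 24 h lay above both of 12 h, which was so for 22.6% of all tested genes. The changes were small, with a median log2 of 0.32 and a highest of 0.71. Ube2c, the ubiquitin-conjugating enzyme of the anaphase-promoting complex, had 2096 and 2153 normalized reads at 12 h and 3029 and 3243 at 24 h (0.56 ± 0.05, adjusted p = 1.01e-04). Cdc25b, a phosphatase that activates CDK1, had 1892 and 1728 at 12 h and 2738 and 2654 at 24 h (0.58 ± 0.06, adjusted p = 1.58e-04). Ccnb1 (cyclin B1) had 4439.8 and 4474 at 12 h and 6406 and 5958 at 24 h (0.47 ± 0.05, adjusted p = 2.18e-04), and Cenpa, the histone H3 variant of centromeres, had 1697 and 1632 at 12 h and 2281 and 2448 at 24 h (0.51 ± 0.06, adjusted p = 2.79e-04). These 4 genes were named for the smallest p of the list, which favours a small spread between replicates. In each of them the replicates of a time differed by far less than the times did. The number of rises among the 33 was 13 without replicate 1 of 12 h, 14 without replicate 2 of 12 h and 10 without replicate 2 of 24 h.

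The CHR element was searched as TTTGAA or TTCGAA on both strands, and it was in the windows of 20 of 27 matched mitosis genes (74.1%), against 21.7% of all genes. 3 of the genes described above are shown, from the same RefSeq table, with the element in capitals. In Ube2c it lies on the opposite strand, 29 bases before the start site (chr2:164769870-164769928, + strand), and in Cdc25b and Cenpa it begins 8 and 17 bases into the transcript (chr2:131186943-131186972 and chr5:30666890-30666919, + strand).
Ube2c: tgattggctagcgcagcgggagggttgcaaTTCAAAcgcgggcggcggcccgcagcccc
Cdc25b: ccgctgttatttTTCGAAtatataaggagg
Cenpa: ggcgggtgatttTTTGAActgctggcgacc
The window of Ccnb1 did not hold these letters.

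Genes of DNA replication had a share of calls near that of all genes. Of 39 tested, none rose and 1 fell, where 3.32% and 3.11% of all tested genes did, with a median log2 change of -0.04. The 1 fall was Cdc6, which loads the replicative helicase, with 1987 and 1945 normalized reads at 12 h and 1583 and 1401 at 24 h (-0.40 ± 0.07, adjusted p = 0.00634). Both its libraries of 24 h were the lower ones, but the call was lost without replicate 1 of 12 h (adjusted p = 0.0559) or replicate 2 of 24 h (0.0772). With the replicate block 4 of the 39 fell. Of 13 tested D-type cyclins and CDK inhibitors, 2 rose: Cdkn1b (p27), an inhibitor of CDK2, from 749.8 and 838 to 1069 and 1300.1 (0.57 ± 0.12, adjusted p = 0.0144), and Cdkn2c (p18), an inhibitor of CDK4 and CDK6, from 956 and 1121 to 1459 and 1603 (0.56 ± 0.13, adjusted p = 0.0196). Neither passed without replicate 1 of 12 h (adjusted p = 0.128 and 0.174) or without replicate 2 of 24 h (0.140 and 0.140), and 5 of the 13 rose with the replicate block.

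Genes on the list of endoplasmic reticulum chaperones were lower at 24 h. Such chaperones fold secreted and membrane proteins and are induced together when unfolded protein accumulates there. The list also holds Xbp1 and Atf6, which encode transcription factors, and Herpud1, Sel1l, Edem1 and Syvn1, which act in protein degradation. Of 21 tested genes on it, 14 fell and none rose, where 3.11% of all tested genes fell and 3.32% rose. In 19 both libraries of 24 h lay below both of 12 h, which was so for 23.4% of all tested genes. The median log2 change was -0.41. Hsp90b1 (GRP94), the HSP90 of this compartment, had 75113 and 71958 normalized reads at 12 h and 40718 and 44829 at 24 h (-0.78 ± 0.09, adjusted p = 4.10e-04). Calr (calreticulin), a chaperone of glycoproteins, had 57413 and 54573 at 12 h and 33568 and 37891 at 24 h (-0.65 ± 0.08, adjusted p = 5.53e-04). The disulfide isomerase gene Pdia4 had 8391 and 8016 at 12 h and 4833 and 5239 at 24 h (-0.70 ± 0.08, adjusted p = 4.10e-04), and Hyou1, a co-chaperone of BiP, had 10174 and 9221 at 12 h and 5850.0 and 5418 at 24 h (-0.78 ± 0.10, adjusted p = 7.98e-04). All 4 genes, named for the smallest p of the list, kept to between 1.5-fold and 2-fold, with no overlap of the libraries. Hspa5, the gene of BiP itself, is added here because of the test in a later paragraph: it had 40119.6 and 36732 at 12 h and 25869 and 28060.5 at 24 h (-0.51 ± 0.11, adjusted p = 0.0133), with an adjusted p of 0.116 without replicate 1 of 12 h and 0.0768 without replicate 1 of 24 h. The number of falls among the 21 was 8 without replicate 1 of 12 h and 9 without replicate 1 of 24 h.

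These promoters are known for the ER stress element, in which CCAAT and CCACG are 9 bases apart. Searched in that form on both strands, it was in the windows of 8 of 18 matched genes of the chaperone list and in 0.137% of all genes (Hyou1, Manf and Atf6 had no entry). The window of Pdia4 did not hold this form. The whole match is in capitals, in Hspa5 (chr2:34771995-34772073, + strand, 65 bases before the start site), Calr (chr8:84847045-84847123, - strand, 162 bases before, on the opposite strand) and Hsp90b1, which has 2 in opposite orientation (chr10:86705503-86705686, - strand, the first 212 bases before).
Hspa5: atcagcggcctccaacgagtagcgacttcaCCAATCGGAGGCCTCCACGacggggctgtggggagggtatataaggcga
Calr: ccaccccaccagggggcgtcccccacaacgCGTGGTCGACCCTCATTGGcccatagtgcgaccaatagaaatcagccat
Hsp90b1: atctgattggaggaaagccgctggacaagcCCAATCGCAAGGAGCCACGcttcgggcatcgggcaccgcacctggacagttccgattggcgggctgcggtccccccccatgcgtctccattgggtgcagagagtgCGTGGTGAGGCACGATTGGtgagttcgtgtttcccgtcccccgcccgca
The cytosolic heat shock proteins, a separate family of chaperones, showed 2 falls and no rise among 18 tested, where 3.11% of all tested genes fell. They were Hspa8 (-0.30 ± 0.08, adjusted p = 0.0480) and Hsph1 (-0.33 ± 0.09, adjusted p = 0.0480), and neither passed with equal totals or without replicate 1 of 12 h, replicate 2 of 12 h or replicate 1 of 24 h (adjusted p = 0.163, 0.151 and 0.261 for Hspa8, 0.153, 0.157 and 0.272 for Hsph1). With the replicate block 4 of the 18 fell.

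Genes of the extracellular matrix and of its turnover held more falls than rises. Fibroblasts secrete collagens, fibrillins and matricellular proteins, anchor to them through integrins, and remodel them with metalloproteases and the plasmin system. Of 29 tested matrix genes, 8 fell and 1 rose, where 3.11% of all tested genes fell and 3.32% rose, with a median log2 change of -0.14. The rise was Spp1 (osteopontin), named after its value was seen, with 15245 and 17460.0 at 12 h and 23742 and 25029.9 at 24 h (0.58 ± 0.14, adjusted p = 0.0271), which was 0.204 without replicate 1 of 12 h, 0.0512 without replicate 2 of 12 h, 0.0734 without replicate 1 of 24 h and 0.154 without replicate 2 of 24 h. Fbn1 (fibrillin-1), the backbone of microfibrils, had 20312 and 18553 normalized reads at 12 h and 12631 and 12244 at 24 h (-0.64 ± 0.06, adjusted p = 1.11e-04). The basement membrane collagen genes Col4a1 (21119.6 and 19971 at 12 h, 14936 and 13947 at 24 h, -0.51 ± 0.07, adjusted p = 7.82e-04) and Col4a2 (-0.48 ± 0.07, adjusted p = 0.00200) fell in step, as did Col5a1 (-0.51 ± 0.08, adjusted p = 0.00178), whose chain sets fibril width. The libraries of these genes did not overlap, and in 23.4% of all tested genes both libraries of 24 h likewise lay below both of 12 h. Of 15 tested integrin subunits 2 fell, and they are the 2 chains of the fibronectin receptor: Itga5 with 74139.5 and 66749.6 at 12 h and 44399 and 41665 at 24 h (-0.71 ± 0.10, adjusted p = 0.00107) and Itgb1 with 46499.9 and 43171 at 12 h and 33533 and 34028 at 24 h (-0.41 ± 0.06, adjusted p = 0.00101). Without replicate 1 of 12 h, 4 matrix genes fell, and without replicate 2 of 24 h, 5 did. With the replicate block 7 integrin subunits fell.

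Of 31 tested matrix proteases and their inhibitors, 10 fell and 2 rose, beside 3.11% and 3.32% of all tested genes (median log2 -0.28), and both proteases and inhibitors were among the falls. Timp1, an inhibitor of metalloproteinases, had 3705 and 3149 normalized reads at 12 h and 1824 and 1569 at 24 h (-1.01 ± 0.13, adjusted p = 5.32e-04). Adam19, a membrane-bound metalloprotease, had 9044 and 7962 at 12 h and 4909.9 and 4269.5 at 24 h (-0.89 ± 0.11, adjusted p = 4.10e-04). Serpinb2 (PAI-2), an inhibitor of plasminogen activators, had 492 and 356 at 12 h and 149 and 69.0 at 24 h, the largest fall of all tested genes on the log2 scale (-2.03 ± 0.42, adjusted p = 0.0126), but its replicates were far apart and the adjusted p was 0.109 without replicate 1 of 12 h and 0.129 without replicate 2 of 24 h. Pappa2, a protease that cleaves IGF-binding proteins, went the other way, from 56.4 and 98.5 to 301 and 334 (2.07 ± 0.26, adjusted p = 6.08e-04), the largest rise outside the clock lists among called genes with a mean of at least 50. The other rise was Mmp19, a secreted metalloproteinase named after its value was seen (0.34 ± 0.09, adjusted p = 0.0455, and 0.283 without replicate 1 of 12 h, 0.0682 without replicate 2 of 12 h, 0.0652 without replicate 1 of 24 h and 0.265 without replicate 2 of 24 h). The number of falls depended on single libraries: 3 without replicate 1 of 12 h, 5 without replicate 1 of 24 h and 2 without replicate 2 of 24 h.

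Targets of the regulators that couple the cytoskeleton to transcription had more falls than rises. Of 15 tested YAP and TAZ targets, 5 fell and 1 rose (median log2 -0.18). For these and the next 2 lists, the shares among all tested genes were 3.11% falls and 3.32% rises. The rise was Tead2, one of the DNA-binding partners of YAP, named after its value was seen (0.27 ± 0.07, adjusted p = 0.0341, and 0.227 without replicate 1 of 12 h, 0.0645 without replicate 2 of 12 h, 0.126 without replicate 1 of 24 h and 0.105 without replicate 2 of 24 h). Ankrd1, a nuclear ankyrin repeat protein, had 4131 and 4011 normalized reads at 12 h and 1981 and 2272 at 24 h (-0.94 ± 0.13, adjusted p = 0.00107). The matricellular gene Cyr61 (CCN1) had 38692 and 33019 at 12 h and 20568 and 20351 at 24 h (-0.80 ± 0.11, adjusted p = 8.24e-04). Its relative Ctgf (CCN2) had 36014 and 30808 at 12 h and 22124 and 17414 at 24 h (-0.76 ± 0.12, adjusted p = 0.00250). No 24 h library reached a 12 h library in these 3 genes, which was so for 23.4% of all tested genes. Of 18 tested TGF-beta ligands and feedback genes, 5 fell and none rose (median log2 -0.08), with Ltbp2, a binding protein of the latent complex family (-0.68 ± 0.09, adjusted p = 6.08e-04) among the falls. Of 21 tested SRF and MRTF targets, mostly actin-binding and contractile genes, 6 fell and none rose (median log2 -0.15). Tagln (transgelin) had 54562 and 64629 at 12 h and 34120.2 and 42171 at 24 h (-0.65 ± 0.15, adjusted p = 0.0242), and its adjusted p was 0.0559 without replicate 1 of 12 h, 0.131 without replicate 2 of 12 h and 0.143 without replicate 1 of 24 h. The 6 falls became 0 without replicate 1 of 12 h, 2 without replicate 2 of 12 h, 1 without replicate 1 of 24 h and 2 without replicate 2 of 24 h, and 10 with the replicate block. Of the YAP and TAZ targets 3 fell without replicate 1 of 12 h or without replicate 2 of 24 h, and of the TGF-beta genes 2 did in either case.

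**Figure D3:**
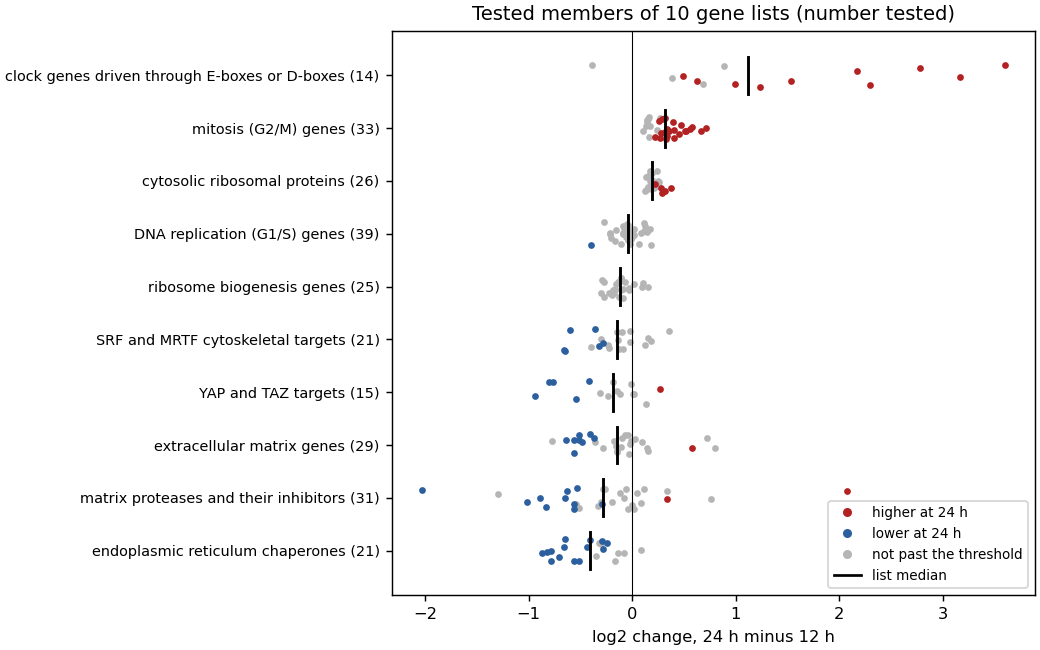
Log2 change from 12 h to 24 h of every tested member of 10 gene lists, with 1 point per gene, coloured where it passed the threshold, and a bar at the median of the list (number of tested genes in brackets). The medians run from 1.12 for E-box and D-box clock genes to -0.41 for endoplasmic reticulum chaperones, and all 33 mitosis genes and all 26 ribosomal protein genes lie to the right of 0.

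Cytosolic ribosomal protein genes, which are translated under control of nutrient signals and sit among the most abundant transcripts, were slightly higher at 24 h throughout. All 26 tested had a positive change, and in 24 both libraries of 24 h were above both of 12 h (22.6% of all tested genes). Past the threshold 5 rose, where 3.32% of all tested genes did, and the median log2 change was 0.19. Rplp2, a protein of the ribosomal stalk, had 8186 and 7993 normalized reads at 12 h and 10120.0 and 10854 at 24 h (0.37 ± 0.06, adjusted p = 0.00337). The count of rises moved widely: 12 with equal totals, 23 with the replicate block, and 1, 2, 3 and 1 without replicates 1 and 2 of 12 h and replicates 1 and 2 of 24 h. The median of the 26 was positive under every scaling tried. Genes of ribosome assembly in the nucleolus had no member past the threshold among 25 tested, and their median was -0.12. Of the 25, 21 had a negative change. In 13 both libraries of 24 h lay below both of 12 h and in 1 above, where 23.4% and 22.6% of all tested genes did.

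Of 20 tested genes of the glucocorticoid receptor and its targets, which the pulse had acted on before 0 h, 5 rose and 1 fell between 12 h and 24 h (median log2 0.16), where 3.32% of all tested genes rose and 3.11% fell. Per1 was among the rises. The others were Ddit4, Cebpd and, named after their values were seen, Cebpb and Tsc22d3 (GILZ). Cebpb, a relative of Cebpd, changed by 0.54 ± 0.11 (adjusted p = 0.0117, and 0.0834 without replicate 1 of 12 h and 0.108 without replicate 2 of 24 h). Tsc22d3, an anti-inflammatory mediator of glucocorticoids, changed by 0.57 ± 0.13 (adjusted p = 0.0219, and 0.154 without replicate 1 of 12 h, 0.0569 without replicate 2 of 12 h and 0.191 without replicate 2 of 24 h). Ddit4 (REDD1), an inhibitor of mTORC1, went from 1434 and 1341 to 1914 and 2176 normalized reads (0.56 ± 0.09, adjusted p = 0.00282). Cebpd, a transcription factor of the acute phase response, went from 491 and 621 to 1075 and 1434 (1.17 ± 0.22, adjusted p = 0.00755), and its adjusted p was 0.0839 without replicate 1 of 12 h and 0.0850 without replicate 2 of 24 h. Tgm2, a transglutaminase that crosslinks matrix proteins, fell from 5796 and 6031 to 3401 and 3587 (-0.76 ± 0.09, adjusted p = 5.32e-04). Rises numbered 2 without replicate 1 of 12 h, 3 without replicate 2 of 24 h and 9 with the replicate block. Among 26 tested immediate early genes, which respond within minutes to serum and growth factors, 3 rose and 2 fell, against the same shares of all tested genes. The falls were Maff (-0.41 ± 0.08, adjusted p = 0.00615, and 0.0593 without replicate 1 of 12 h and 0.0686 without replicate 2 of 24 h) and Klf6 (-0.32 ± 0.07, adjusted p = 0.0217, and 0.126 without replicate 2 of 12 h, 0.116 without replicate 1 of 24 h and 0.0506 without replicate 2 of 24 h). The rises were Nr4a2 (0.54 ± 0.13, adjusted p = 0.0291, and 0.245 without replicate 1 of 12 h, 0.0607 without replicate 1 of 24 h and 0.174 without replicate 2 of 24 h), Fosl2 and, named after its value was seen, Jund (0.63 ± 0.17, adjusted p = 0.0386, and 0.201 without replicate 1 of 12 h, 0.0965 without replicate 2 of 12 h, 0.0849 without replicate 1 of 24 h and 0.198 without replicate 2 of 24 h). Fosl2, an AP-1 subunit, had the smallest p of them, from 5396 and 5224 to 6493 and 6639 (0.31 ± 0.05, adjusted p = 0.00345). Both replicates of each time lay close together for Fosl2. Rises among the 26 numbered 1, 2, 1 and 1 without replicates 1 and 2 of 12 h and replicates 1 and 2 of 24 h, falls 1, 1, 1 and 0, and with the replicate block there were 7 and 4.

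NRF2 antioxidant targets had 4 rises and no fall among 19 tested, where 3.32% of all tested genes rose. The 2 ferritin chains, which store iron, were among them: Fth1 went from 24040.1 and 26609 to 33966 and 36152 normalized reads (0.47 ± 0.07, adjusted p = 0.00250) and Ftl1 from 11538 and 11729 to 15377 and 15085 (0.39 ± 0.06, adjusted p = 0.00160). Without replicate 1 of 12 h the rises were 2, and with the replicate block 9. Sterol synthesis genes had 3 rises among 23 tested, ATF4 amino acid response genes 1 rise and 2 falls among 23, NF-kB and cytokine genes 4 falls among 24, hypoxia and glycolysis genes 1 rise and 2 falls among 33, respiratory chain subunits 1 rise among 29 and proteasome subunits 1 fall among 31. Among all tested genes 3.32% rose and 3.11% fell, and the shares of calls in the respiratory chain and proteasome lists were near these. In 17 of the 29 respiratory chain genes both libraries of 24 h lay above both of 12 h, and in 0 below. In the 31 proteasome genes they lay above in 2 and below in 17. Among all tested genes 22.6% lay above and 23.4% below. On the NF-kB list, the target Tnfaip3 (A20), a brake on inflammatory signalling, had 446 and 372 at 12 h and 237 and 210.2 at 24 h (-0.86 ± 0.21, adjusted p = 0.0289), and Ptgs2, the inducible cyclooxygenase, had 21653 and 16662 at 12 h and 11721 and 9749 at 24 h (-0.83 ± 0.23, adjusted p = 0.0480). Both calls were lost without any 1 of the 4 libraries: the adjusted p of Tnfaip3 was 0.204 without replicate 1 of 12 h, 0.0593 without replicate 2 of 12 h, 0.0676 without replicate 1 of 24 h and 0.170 without replicate 2 of 24 h, and that of Ptgs2 was 0.300 without replicate 1 of 12 h, 0.0658 without replicate 2 of 12 h, 0.0813 without replicate 1 of 24 h and 0.257 without replicate 2 of 24 h. P4ha2, a collagen prolyl hydroxylase of the hypoxia list, had 7757 and 7215 at 12 h and 5021 and 5357 at 24 h (-0.53 ± 0.08, adjusted p = 0.00138). The counts of these lists moved with single libraries. Without replicates 1 and 2 of 12 h and replicates 1 and 2 of 24 h, sterol synthesis rises numbered 1, 1, 2 and 0, NF-kB and cytokine falls 0, 1, 1 and 1, ATF4 response falls 1, 0, 2 and 1, hypoxia falls 1, 2, 1 and 2, and the proteasome fall and the rises of the ATF4 and hypoxia lists were lost each time. With the replicate block there were 8 sterol synthesis rises, 7 NF-kB and cytokine falls, 11 ATF4 response falls, 10 respiratory chain rises, 6 hypoxia falls and 4 hypoxia rises, and 5 proteasome falls. Fatty acid synthesis genes (12 tested), replication-dependent histones (5) and cold-inducible RNA-binding proteins (3) had no call.

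Outside the lists, the largest changes in genes whose mean reached 50 were mixed in function. After the clock genes and Pappa2, the largest rises were Ly6c1, a surface antigen, from 34.9 and 56.5 to 112 and 136 (1.45 ± 0.36), Bmf, a BH3-only promoter of cell death, from 163 and 192 to 429 and 500.5 (1.38 ± 0.24), Apol6, an apolipoprotein L, from 56.4 and 69.2 to 129 and 198 (1.34 ± 0.30), and Stc1 (stanniocalcin-1), a secreted hormone, from 623 and 787 to 1474 and 1713 (1.18 ± 0.24). Libraries that do not overlap were part of the rule that named these 4. Their calls were lost without replicate 1 of 12 h and without replicate 2 of 24 h, and that of Ly6c1 also without replicate 1 of 24 h. Sema7a, among the falls, a membrane-anchored semaphorin, had 3333 and 2102 at 12 h and 856 and 545 at 24 h (-1.95 ± 0.30, adjusted p = 0.00200). Lrrc15, a membrane protein with leucine-rich repeats, had 104 and 78.0 at 12 h and 24.9 and 28.9 at 24 h (-1.71 ± 0.26, adjusted p = 0.00188). Csf3, the granulocyte colony-stimulating factor, had 159 and 156 at 12 h and 57.6 and 70.1 at 24 h (-1.30 ± 0.22, adjusted p = 0.00451). These 3 genes passed without each single library. The mean of Sema7a was lower at each harvest after 4 h: it was 11416, 5152, 1466, 700.3 and 486 at 4, 8, 16, 24 and 32 h.

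Markers were checked for the labelled cell type and for other cells, beside 3.32% rises and 3.11% falls among all tested genes. Of the other cells, 3 epithelial, 2 leukocyte, 3 endothelial, 5 skeletal muscle, 2 adipocyte and 3 neural markers were tested. A lack of calls in these lists therefore says little. All 12 fibroblast markers were present and tested, and their summed level was 698389 and 652530.0 normalized reads at 12 h and 627278 and 616501 at 24 h. Of these, Pdgfrb, a receptor of platelet-derived growth factor, rose (0.24 ± 0.07, adjusted p = 0.0460, and 0.214 without replicate 1 of 12 h, 0.113 without replicate 2 of 12 h, 0.132 without replicate 1 of 24 h and 0.165 without replicate 2 of 24 h) and none fell. Of 10 epithelial markers 7 stayed under 10 normalized reads in all 4 libraries, with Cldn4 and Esrp1 at 0, and the summed level was 392 and 319.8 at 12 h and 222 and 180.2 at 24 h. The 1 fall on that list was Krt8, a keratin with 302 and 248 at 12 h and 138 and 99.0 at 24 h (-1.22 ± 0.17, adjusted p = 0.00132). Of 10 leukocyte markers 8 stayed under 10, with Cd3e at 0, and of 10 endothelial markers 7 did, with Kdr and Cldn5 at 0. Their summed levels were 418 and 333 at 12 h and 409 and 321 at 24 h for leukocytes, and 444 and 382 and then 350.0 and 360.3 for endothelium, with no call in either list. Of 10 skeletal muscle markers 5 stayed under 10, with the regulators Myod1, Myog and Myf5 at 0, and the summed level was 3078 and 2962 at 12 h and 1309 and 1554 at 24 h, nearly all of it Acta1. Acta1, a skeletal muscle actin that fibroblasts also express, had 2955 and 2861 at 12 h and 1159 and 1390.2 at 24 h (-1.20 ± 0.12, adjusted p = 1.11e-04). Of 9 adipocyte markers 6 stayed under 10, with Lep at 0, and their sum was 494 and 572 at 12 h and 682 and 865 at 24 h, with no call. Of the 9 neural markers found, 6 stayed under 10, with Olig2 at 0, and their sum was 721 and 679 and then 609 and 487. The 1 neural fall was Tubb3, a tubulin (-0.60 ± 0.13, adjusted p = 0.0146, and 0.107 without replicate 1 of 12 h, 0.0510 without replicate 2 of 12 h and 0.144 without replicate 2 of 24 h). The part of other cell types in any result was not tested.

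The genes called here were then looked up in libraries whose means this contrast did not use. Those libraries had entered the estimate of spread behind the calls, so the lookup is not independent of them. Of the 412 rises, 396 (96.1%) had a higher mean at 20 h than at 16 h, against 49.0% of all tested genes. The same held between 16 h and 28 h for 389 (94.4%, against 48.7%). Of the 385 falls, 372 (96.6%, against 51.0%) were lower at 20 h than at 16 h and 379 (98.4%, against 51.3%) were lower at 28 h than at 16 h. From 28 h to 32 h the directions were mixed again, with 189 of the rises going up further (45.9%, against 50.8% of all tested genes) and 208 of the falls going down further (54.0%, against 49.2%). The medians of the lists over the course show which groups turned back and which did not. From the 12 h mean, the median of the 14 E-box and D-box clock genes stood 1.99, 0.16, 1.11 and 0.65 higher at 0, 16, 24 and 32 h. The mitosis genes climbed from -0.37 at 0 h to 0.39 at 20 h and were at 0.20 at 32 h. The genes of the chaperone list stood at -0.22, 0.44, 0.43 and -0.42 at 0, 4, 8 and 28 h, so the 12 h harvest lay between their high levels and their low ones.

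**Figure D4:**
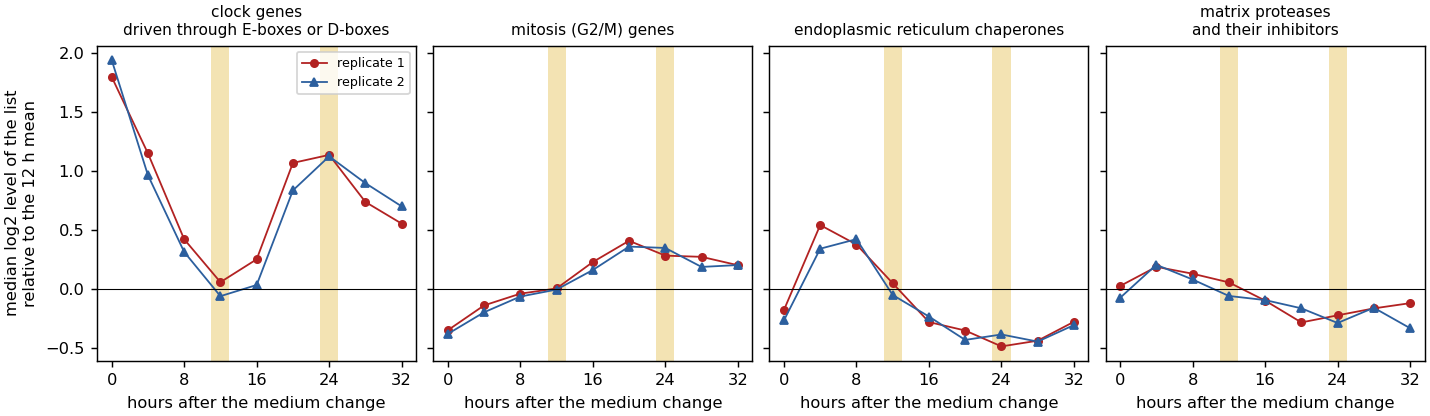
Median log2 level of the tested genes of 4 lists in each library, relative to the mean of the 12 h libraries, against hours after the medium change, with 1 line per replicate and bands at 12 h and 24 h. The clock list falls to 12 h and has a second maximum at 24 h, whereas the mitosis list climbs until 20 h and the chaperone list declines from 8 h to 20 h and is higher at 32 h than at 28 h in both replicates.

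The means of the 2 neighbouring contrasts over 12 h, 20 h against 8 h and 28 h against 16 h, share no library with those of this one. The estimate of spread, from all 18 libraries, is common to them. Between 8 h and 20 h 2100 genes passed (16.9%), of which 590 were also among the 797 (28.1% of the 2100 and 74.0% of the 797), and between 16 h and 28 h 172 passed (1.39%), of which 126 were (73.3% of the 172 and 15.8% of the 797). The first count was 916 and 1385 without replicates 1 and 2 of 8 h, and 1558 and 751 without replicates 1 and 2 of 20 h. The second was 27 and 11 without replicates 1 and 2 of 16 h, and 12 and 11 without replicates 1 and 2 of 28 h. With the replicate block the counts were 4047 and 1610. A test of the difference between contrasts singled out few genes. Against 28 h minus 16 h, 2 genes differed (0.0161%, or 29 genes with the replicate block), the genes of the REV-ERB receptors. Nr1d2 changed by 0.07 ± 0.11 from 16 h to 28 h, so its change from 12 h to 24 h was larger by 2.22 ± 0.15 (adjusted p = 8.39e-06). Nr1d1 changed by -0.42 ± 0.16, a difference of 1.65 ± 0.22 (adjusted p = 0.0201). The means of Nr1d2 were 547 at 16 h and 578 at 28 h, and those of Nr1d1 938 and 701, so the high levels of 20 h and 24 h had passed by 28 h. The call for Nr1d1 was lost without replicate 2 of 12 h (adjusted p = 0.128), replicate 1 of 24 h (0.216), replicate 2 of 24 h (0.0879), replicate 1 of 16 h (0.139), replicate 1 of 28 h (0.0607) or replicate 2 of 28 h (0.205), and also without the variance trend (0.182), and that for Nr1d2 held in each of these fits.

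Against 20 h minus 8 h, 9 genes differed (0.0726%, or 148 genes with the replicate block), and 6 of them are clock genes: Per2, Per3, Cry1, Cry2, Tef and Bhlhe40. Cry1 changed by -1.67 ± 0.17 from 8 h to 20 h against 0.79 ± 0.17 between 12 h and 24 h, a difference of 2.46 ± 0.24 (adjusted p = 3.63e-04). Per2 changed by -0.27 ± 0.20 from 8 h to 20 h, a difference of 3.44 ± 0.28 (adjusted p = 9.09e-05), and Cry2 by -0.36 ± 0.12, a difference of 1.64 ± 0.17 (adjusted p = 7.07e-04). Tef and Per3 rose in both contrasts but more in the later one, with differences of 1.46 ± 0.16 (adjusted p = 8.14e-04) and 1.56 ± 0.22 (0.0109). Bhlhe40 fell from 8 h to 20 h (-0.77 ± 0.10) and rose from 12 h to 24 h, a difference of 1.26 ± 0.15 (adjusted p = 0.00145). These 5 differences, without that of Per3, held without each library of those times. For Per3 the adjusted p was 0.0858 without replicate 2 of 12 h, 0.0822 without replicate 2 of 24 h, 0.0919 without replicate 1 of 8 h, 0.106 without replicate 1 of 20 h and 0.0615 without the variance trend.

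The other 3 genes of that test are no clock genes. The chaperone gene Hspa5 fell in both, with a change of -1.68 ± 0.11 over the earlier span and -0.51 ± 0.11 between 12 h and 24 h, a difference of 1.17 ± 0.15 (adjusted p = 0.00403), which held without each library. Named because they passed this test are Tcf19, a nuclear factor of proliferating cells (1576 and 1768 normalized reads at 12 h, 1434 and 1435 at 24 h, a difference of -0.68 ± 0.11, adjusted p = 0.0244), and Masp1, a protease of the complement system (1261 and 1236 at 12 h, 959.8 and 873 at 24 h, a difference of -0.71 ± 0.11, adjusted p = 0.0260). From 8 h to 20 h they changed by 0.46 ± 0.07 and 0.26 ± 0.08. In both each library of 24 h was below each of 12 h, which was so for 23.4% of all tested genes. Between 12 h and 24 h Masp1 passed the limma threshold (adjusted p = 0.00510) and Tcf19 did not (adjusted p = 0.0996). For Tcf19 the adjusted p of the difference was 0.171 without replicate 2 of 12 h, 0.0883 and 0.105 without replicates 1 and 2 of 24 h, 0.131 without replicate 1 of 8 h and 0.144 without replicate 2 of 20 h. For Masp1 it was 0.121 and 0.133 without replicates 1 and 2 of 12 h, 0.119 without replicate 2 of 24 h, 0.111 and 0.167 without replicates 1 and 2 of 8 h, and 0.137 and 0.145 without replicates 1 and 2 of 20 h. Without the variance trend both had an adjusted p of 0.0615.

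No gene of the mitosis or matrix lists passed either test of the difference. Ube2c rose by 0.53 ± 0.05 from 8 h to 20 h and changed by 0.17 ± 0.05 from 16 h to 28 h, and the corresponding values of the whole mitosis list were 31 rises with a median of 0.43 and 1 rise with a median of 0.03, where 8.52% and 0.67% of all tested genes rose. Timp1, which fell by 1.01 from 12 h to 24 h, changed by -1.06 ± 0.13 from 8 h to 20 h, with -0.82 ± 0.13 between 16 h and 28 h. Acta1 changed by -1.44 ± 0.12 and -1.07 ± 0.12. All 21 genes of the chaperone list fell from 8 h to 20 h (median -0.80), where 8.42% of all tested genes fell. None passed from 16 h to 28 h, where 0.718% fell (median -0.16).

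**Figure D5:**
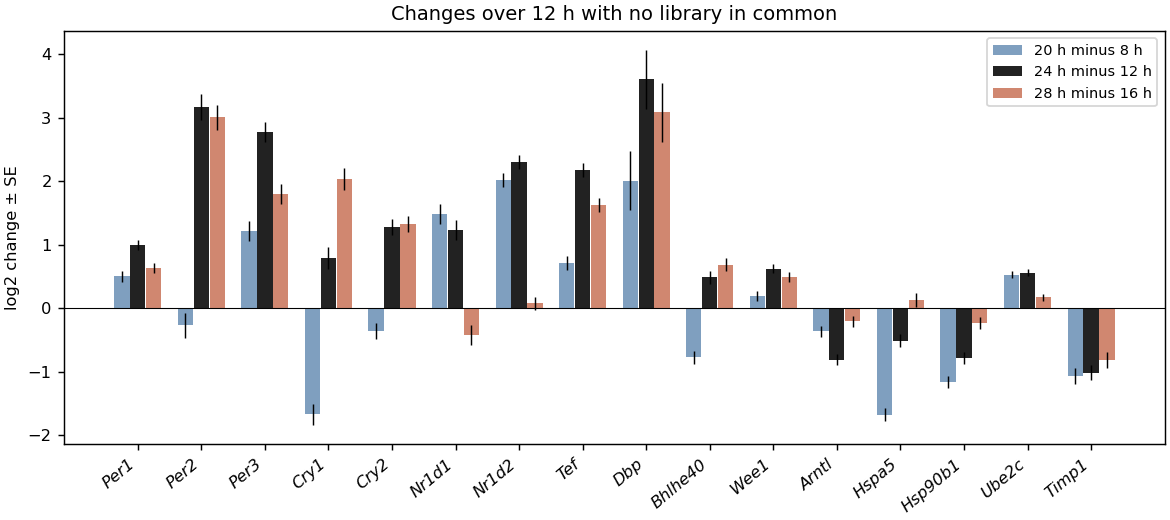
Log2 change with its SE of 16 genes over 12 h from 8 h, 12 h and 16 h, each bar from 4 libraries that no other bar of that gene uses. Per2, Cry1, Cry2 and Bhlhe40 are below 0 from 8 h to 20 h and above 0 in the 2 later contrasts, and Nr1d1 and Nr1d2 are high in the 2 earlier ones only.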

How the data were processed

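RNA was sequenced from NIH3T3 cells at 9 times after the pulse, with 2 libraries per time. The deposited values are a signal per gene that the authors made from read counts divided by 1 factor per library. TopHat, HTSeq, DESeq and build mm9 are named in the submitters' processing notes, and their versions, roles and the annotation are not given in the sources used here. Within each library every value was a whole multiple of 1 step (tolerance 0.02 reads, largest distance 0.00611), so the whole reads were recovered for 100% of values; libraries held 25405004 to 38867189 reads in genes. All 18 columns were mapped to samples by their names.

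Genes with a mean of at least 10 were tested on log2(value + 1) with limma 3.58.1 (trend, all 18 libraries, 9 residual degrees of freedom, two-sided, R 4.3.3), and p-values were adjusted by the Benjamini-Hochberg method over 12393 genes. The procedure was tested on simulated data. The simulated libraries were drawn independently of each other, so that run does not cover the pairing of libraries by replicate number. DESeq2 1.42.0 and edgeR 4.0.16 on the whole reads, other pseudocounts, filters and scalings, a fit with the replicate number as a block, and fits without each library were alternatives. The replicate numbers pair the libraries: over 36 pairs of times the deviations of same-numbered libraries correlated at 0.230 to 0.502 (median 0.345), although the labels do not say what the numbers mark.

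The comparison, the 42 gene lists (830 memberships) and the tests were chosen with earlier results of these data known, so list counts and medians are descriptions. Named were the clock genes, the 12 largest rises and 12 largest falls among called genes with a mean of at least 50 and no overlap between the libraries, up to 4 genes with the smallest p of every other list, and all genes that passed a test of a difference; others are marked where they appear. Not every gene the rule covers is printed, and some are not reported here. Promoter windows are RefSeq sequences of GRCm38.p6, which is not the build of the deposited values, and gene coordinates are not given for that reason. Figures were drawn with matplotlib 3.10.9 in Python 3.11.15.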

Additional observations from a re-analysis of the deposited data

Results flagged for a closer look

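The results below were singled out because the change from 12 h to 24 h differed, by a test of the difference itself (limma, adjusted over all tested genes), from the change over 12 h that began 4 h later or 4 h earlier. Each value is the log2 difference between the 2 changes.

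Against 28 h minus 16 h, the change was larger by 2.222 for Nr1d2 and by 1.654 for Nr1d1, the REV-ERB receptor genes. Against 20 h minus 8 h, it was larger by 3.439 for Per2, 2.459 for Cry1, 1.639 for Cry2, 1.564 for Per3, 1.465 for Tef and 1.261 for Bhlhe40, all of them clock genes. The fall of the chaperone gene Hspa5 was smaller, with a difference of 1.166. The change was more negative by -0.6754 for Tcf19 and by -0.7057 for Masp1. At an unadjusted p under 0.05 the first test held 458 genes and the second 846.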

How the results depend on the processing

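The count of 797 genes was 264 with only the 12 h and 24 h libraries in the fit (148 higher, 116 lower) and 2743 with the replicate block (1360 higher, 1383 lower). Leaving out 1 library gave 214 to 467 genes, 121 to 212 higher and 87 to 255 lower. For 28 h against 16 h, 172 genes became 109 without a filter on the mean, 108 without the variance trend, 380 with DESeq2, 1610 with the replicate block and 11 to 27 without 1 library. For 20 h against 8 h, 2100 became 4047 with the block and 751 to 1558 without 1 library. Of the tests of a difference, the 2 genes against 28 h minus 16 h became 1 without the variance trend, 29 with the block and 1 to 2 without 1 library, and the 9 genes against 20 h minus 8 h became 38 with DESeq2, 148 with the block and 6 to 12 without 1 library. The cause of these moves was not tested. The fits that leave libraries out also hold fewer libraries.

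Of 74 called genes printed above, 43 passed without each single library and 31 were lost without at least 1. With the replicate block, which was paired by the numbers in the labels, none of the 74 was lost and 4 others passed. Direction changed in 1 uncalled gene, Nfil3, whose log2 change ran from -0.051 to 0.207 without 1 library. With 2 libraries per time, the spread of a gene at 12 h or 24 h rests mostly on the other times. Genes near 10 reads, such as Dbp at 12 h, are limited by depth.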
